A study of Mus musculus with 8 samples.

Results

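Toll-like receptors (TLRs) are the membrane receptors with which macrophages, microglia and some other cells sense microbial molecules and products of damaged cells. The genes described here are 9 members of that system, 7 receptor genes (Tlr1, Tlr2, Tlr3, Tlr4, Tlr7, Tlr9 and Tlr13), the co-receptor gene Cd14 and the adaptor gene Myd88. They were taken by gene name from tables of 17700 genes in mouse cerebellum, and the set was chosen by the difference in counts between these same old and young mice. For that reason the age values of these 9 genes are given as a description and not as a test.

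Total RNA after ribosomal RNA depletion was sequenced from the cerebellum of 8 C57BL/6JN mice, 1 library per animal. The old group held 4 mice, old 1 (male, 93 weeks), old 2 (female, 83 weeks), old 3 (male, 83 weeks) and old 4 (female, 102 weeks). The young group held 4 mice, young 1 and young 2 (males, 19 weeks), young 3 (female, 19 weeks) and young 4 (female, 22 weeks). No other treatment or allele is given in the sample labels, and the design text of the series names liver and other age ranges, so tissue and age were taken from the sample labels.

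TLRs recognise their ligands through a leucine-rich ectodomain and signal through a cytoplasmic TIR domain. At the cell surface TLR2, paired with TLR1 or TLR6, binds bacterial lipopeptides, and TLR4 binds lipopolysaccharide with the help of CD14 and MD-2. In endosomes TLR3 senses double-stranded RNA, TLR7 single-stranded RNA, TLR9 unmethylated CpG DNA and TLR13, a mouse receptor absent in humans, bacterial ribosomal RNA. All of these except TLR3, which uses the adaptor TRIF, signal through MyD88 to kinases of the IRAK family, NF-κB and interferon regulatory factors. In brain most TLRs are found in microglia, the resident macrophages, and TLR3 is also found in astrocytes and neurons.

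Gene counts totalled 6132312 to 6784584 in the old libraries and 6079485 to 7236720 in the young libraries. Levels are given as CPM, counts scaled to a common library total after TMM adjustment, and 3 counts corresponded to 0.432 to 0.481 CPM in the old libraries and 0.421 to 0.511 CPM in the young libraries, a floor that covers counting error only. Markers of cerebellar neurons were high in all libraries. The Purkinje cell list summed to 4020 to 5414 CPM in old and 4534 to 5804 CPM in young mice, and the granule neuron list to 4512 to 6277 CPM in old and 4978 to 7646 CPM in young mice. A list of 8 choroid plexus genes varied widely, at 796.6, 1500, 104.1 and 619.1 CPM in old 1 to old 4. It stood at 701.1, 506.5, 136.0 and 81.5 CPM in young 1 to young 4, both young males above both young females. Its part in the sex values was not tested. A list of 7 liver genes summed to 2.84 to 84.2 CPM in old and 0.682 to 21.2 CPM in young mice, highest in old 2, old 3 and young 4, and a list of 12 blood leukocyte genes to 4.25 to 22.4 CPM in old and 1.57 to 4.09 CPM in young mice, highest in old 1 and old 4.

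All 9 genes had a higher mean in old than in young cerebellum. The log2 fold changes, old minus young, had a median of 1.29 and a range of 0.17 (Myd88) to 1.70 (Tlr2), against a median of -0.01 over the 14191 genes tested. The median is the value of Tlr1. Tlr1 and Tlr9 reached the level asked of tested genes in no young library, so both could enter this and the following counts only through the old group. For 5 of the 9 genes (Tlr2, Tlr3, Tlr7, Tlr13 and Cd14) each old value lay above each young value, which was so for 3.15% of all genes tested, while 3.42% had each old value below each young one. Without old 4 the count was again 5 of 9, against 4.22% of all genes. In edgeR's quasi-likelihood fit none of the 9 had a Benjamini-Hochberg adjusted p under 0.05, where 0.120% of all genes did, 0.0987% being higher and 0.0211% lower in old mice. At an unadjusted p under 0.05 the count was 8 of 9, against 1563 of all 14191 genes. By limma-voom with adjustment the count was 0, where 1 of all 14191 genes passed. By the DESeq2 Wald test it was 3 (Tlr2, Tlr7 and Tlr13), where 0.881% of genes passed. Without the 3 libraries richest in liver transcripts (old 2, old 3 and young 4) edgeR gave 5 of 9 (Tlr2, Tlr7, Tlr9, Tlr13 and Cd14), where 1.28% of genes passed. In that fit the only old mice were old 1 and old 4, the oldest of the group. They also had the highest blood leukocyte sums, at 19.9 and 22.4 CPM. The genes were chosen from the age contrast, so nothing is read from these counts. In bulk tissue, more cells of a type and more RNA per cell cannot be told apart.

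**Figure D1:**
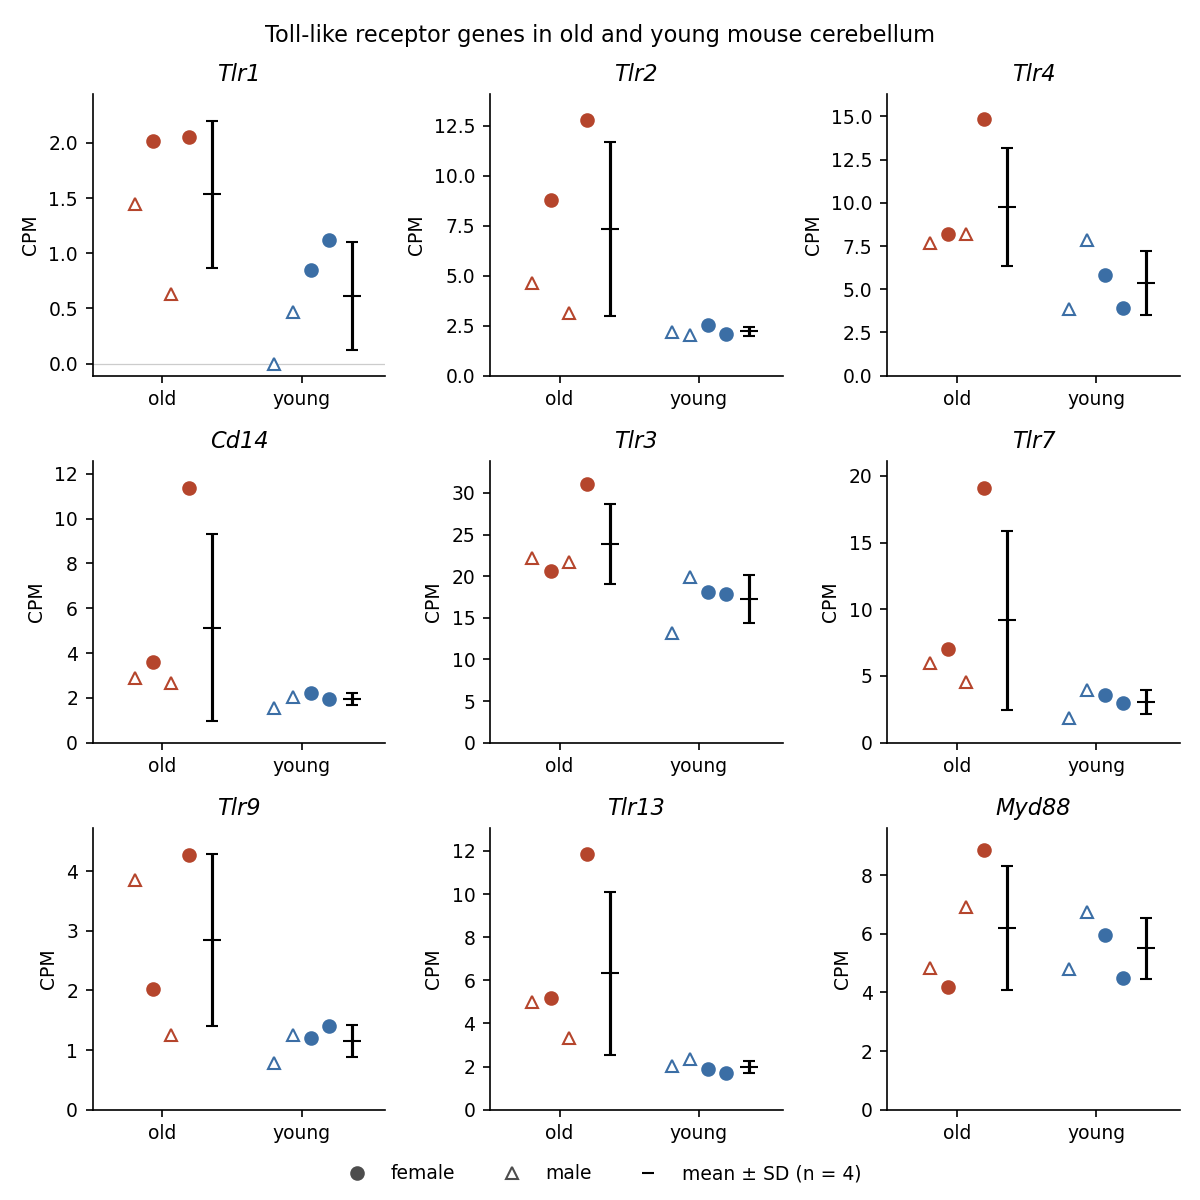
CPM (vertical axis, linear, from 0) of the 9 genes in each of the 4 old and 4 young libraries, with circles for females, open triangles for males and a bar for the mean ± SD (n = 4). Old 4, a female, is the highest point in every panel, and the old and young points do not overlap for Tlr2, Tlr3, Tlr7, Tlr13 and Cd14.

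Among the surface receptors, Tlr2 had a log2 fold change close to that of Tlr13, and which of the 9 genes ranked first changed with the libraries and the tool. Tlr2 had 29, 61, 20 and 81 counts in old 1 to old 4, against 14, 13, 15 and 15 counts in young 1 to young 4. The young libraries were tightly grouped, at 2.22 ± 0.23 CPM (SD, n = 4), while the old libraries spread widely, at 7.34 ± 4.34 CPM (SD, n = 4), with both old females above both old males. The log2 fold change of Tlr2 was 1.70 ± 0.31 (SE), and 1.44 without old 4. Tlr2 lies on the minus strand of chromosome 3 at 83836272 to 83841767 (GRCm38, GENCODE M21).

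Tlr4, the lipopolysaccharide receptor, had 48, 57, 52 and 94 counts in old 1 to old 4, against 25, 50, 34 and 28 counts in young 1 to young 4. Old 1, old 2 and old 3 were nearly level, between 7.70 and 8.20 CPM, old 4 stood at 14.8 CPM, and young 2, at 7.84 CPM, overlapped the old range. Means were 9.73 ± 3.41 CPM in old and 5.36 ± 1.88 CPM in young mice (SD, n = 4 each), a log2 fold change of 0.86 ± 0.29 (SE). Tlr4 lies on chromosome 4 at 66827584 to 66930284, on the plus strand.

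Cd14, the co-receptor that hands lipopolysaccharide to the TLR4 complex, had 18, 25, 17 and 72 counts in old 1 to old 4, against 10, 13, 13 and 14 counts in young 1 to young 4. Old 4 was far above the other old mice, at 11.4 CPM against 2.67 to 3.60 CPM. The log2 fold change was 1.36 ± 0.44 (SE) with all 8 libraries and 0.70 without old 4, so the size of the difference in Cd14 rested largely on 1 animal. The 3 other old values still lay above the 4 young ones, the highest of which was 2.22 CPM. Cd14 lies on the minus strand of chromosome 18 at 36725067 to 36726798.

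Tlr1, the partner of Tlr2, was the least abundant of the 9 genes. It had 9, 14, 4 and 13 counts in old 1 to old 4, against 0, 3, 5 and 8 counts in young 1 to young 4. The groups overlapped, and the log2 fold change of 1.29 ± 0.51 (SE) is imprecise. Tlr1 reached the level asked of tested genes in 2 old and no young library, so it could enter the test only through the old group, and the same held for Tlr9 with 3 old and no young library. Tlr1 lies on chromosome 5 at 64924679 to 64933563.

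Among the endosomal receptors, Tlr7 and Tlr13 both lie on the X chromosome. Tlr7, at 167304929 to 167330558, had 37, 49, 29 and 121 counts in old 1 to old 4, against 12, 25, 21 and 21 counts in young 1 to young 4. All old values lay above all young values, and old 4 held about as many Tlr7 counts as the 3 other old libraries together. Means were 9.16 ± 6.70 CPM in old and 3.08 ± 0.91 CPM in young mice (SD, n = 4 each), and the log2 fold change of 1.54 ± 0.42 (SE) was 0.98 without old 4.

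Tlr13, at 106143204 to 106160493, had 31, 36, 21 and 75 counts in old 1 to old 4, against 13, 15, 11 and 12 counts in young 1 to young 4. The young libraries again lay close together, at 1.98 ± 0.28 CPM, and the old at 6.32 ± 3.77 CPM (SD, n = 4 each). The log2 fold change of Tlr13 was 1.64 ± 0.39 (SE), and 1.19 without old 4.

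Tlr9, on chromosome 9 at 106222598 to 106226883, had 24, 14, 8 and 27 counts in old 1 to old 4, against 5, 8, 7 and 10 counts in young 1 to young 4. Old 1 and old 4 were highest and old 3, with 1.26 CPM, fell inside the young range of 0.775 to 1.403 CPM. The log2 fold change of Tlr9 was 1.27 ± 0.44 (SE).

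Tlr3, the double-stranded RNA receptor, was the most abundant of the 9 genes per length and had a small age difference. It had 138, 143, 138 and 197 counts in old 1 to old 4, against 85, 127, 106 and 127 counts in young 1 to young 4. Old 4 and young 1 stood apart in opposite directions, and the remaining old libraries, at 20.6 to 22.1 CPM, lay just above the remaining young ones, at 17.8 to 19.9 CPM. The log2 fold change of Tlr3 was 0.47 ± 0.16 (SE), and 0.32 without old 4. Tlr3 lies on chromosome 8 at 45395665 to 45411080, where an antisense gene model, Gm45542, shares 381 of its exonic bases.

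Myd88, the adaptor shared by all of these receptors but TLR3, differed least with age. It had 30, 29, 44 and 56 counts in old 1 to old 4, against 31, 43, 35 and 32 counts in young 1 to young 4. The lowest of the 8 values, 4.17 CPM, and the highest, 8.84 CPM, both belonged to old females. Means were 6.19 ± 2.12 CPM in old and 5.5 ± 1.04 CPM in young mice (SD, n = 4 each), and the log2 fold change was 0.17 ± 0.27 (SE) and -0.10 without old 4. Myd88 lies on chromosome 9 at 119335934 to 119341411 and shares 290 exonic bases with Acaa1a, a peroxisomal thiolase gene on the opposite strand. Acaa1a was at 56.6 CPM in old and 53.9 CPM in young mice, so reads of this more abundant gene could have been counted for Myd88 if strand was not used, and their part in the Myd88 values was not tested.

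Promoter windows are shown for Tlr2 and Tlr13, 2 receptors with large age differences, for Tlr9, which held the most motif matches, and for Myd88, which had the smallest age difference. RefSeq windows of 300 bases (250 before and 50 after the transcript start, GRCm38.p6) were found for 6 of the 9 genes. Capitals mark matches, on either strand, to GAGGAA, a core bound by the myeloid factor PU.1, or to a core of interferon response elements, GAAA followed by 2 bases of any kind and GAAA again. Both cores were chosen after the windows were read. Sequences run 5′ to 3′ along the gene.
Tlr2: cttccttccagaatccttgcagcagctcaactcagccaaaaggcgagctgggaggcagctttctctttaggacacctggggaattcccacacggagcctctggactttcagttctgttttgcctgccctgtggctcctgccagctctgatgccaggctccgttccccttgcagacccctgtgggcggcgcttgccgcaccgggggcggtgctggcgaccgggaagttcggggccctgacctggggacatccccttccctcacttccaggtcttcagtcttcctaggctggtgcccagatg
Tlr13: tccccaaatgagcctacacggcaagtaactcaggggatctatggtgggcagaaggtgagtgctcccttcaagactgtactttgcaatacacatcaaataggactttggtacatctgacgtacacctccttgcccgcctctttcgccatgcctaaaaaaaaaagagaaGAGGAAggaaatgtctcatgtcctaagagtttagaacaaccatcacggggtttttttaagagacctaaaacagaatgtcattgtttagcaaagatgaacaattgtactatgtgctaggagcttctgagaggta
Tlr9: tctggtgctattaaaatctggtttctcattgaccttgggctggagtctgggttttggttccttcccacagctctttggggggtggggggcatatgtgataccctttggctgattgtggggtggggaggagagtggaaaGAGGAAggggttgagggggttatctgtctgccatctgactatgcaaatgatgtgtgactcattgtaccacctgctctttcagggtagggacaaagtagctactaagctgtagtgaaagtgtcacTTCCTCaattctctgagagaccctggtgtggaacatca
Myd88: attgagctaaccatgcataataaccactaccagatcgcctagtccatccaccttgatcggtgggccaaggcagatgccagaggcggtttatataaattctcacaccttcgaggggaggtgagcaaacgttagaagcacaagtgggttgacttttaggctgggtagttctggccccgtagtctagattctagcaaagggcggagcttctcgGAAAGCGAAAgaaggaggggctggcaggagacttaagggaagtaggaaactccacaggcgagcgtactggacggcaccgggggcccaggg
These windows are chr3:83841559-83841858 (minus strand), chrX:106143025-106143324 (plus), chr9:106222348-106222647 (plus) and chr9:119339969-119340268 (minus). GAGGAA occurred in the windows of 3 of the 6 genes, Tlr1, Tlr9 and Tlr13, and in 28.3% of all 32851 windows. Among the 6 genes the interferon response core occurred in the Myd88 window alone, beginning 40 bases before the start, and in 3.44% of all windows. The Tlr2 window held neither, and a match or its absence in these letters says nothing of a factor's binding.

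Per kilobase of exon, Tlr3 had the highest level in both age groups, at 4.59 ± 0.93 CPM per kb in old and 3.31 ± 0.55 CPM per kb in young mice (SD, n = 4 each). In young mice the order of levels after Tlr3 was Myd88 (2.14), Cd14 (1.12), Tlr4 (0.965), Tlr7 (0.754), Tlr2 (0.736), Tlr13 (0.460), Tlr9 (0.333) and Tlr1 (0.183 CPM per kb). Of these neighbours Cd14 and Tlr4, Tlr4 and Tlr7, and Tlr7 and Tlr2 differed by less than the larger of their SDs. In old mice the order after Tlr3 was Cd14 (2.96), Tlr2 (2.44), Myd88 (2.40), Tlr7 (2.24), Tlr4 (1.75), Tlr13 (1.47), Tlr9 (0.818) and Tlr1 (0.459 CPM per kb), and there no pair of neighbours differed by more than the larger SD. Tlr2 and Myd88 were nearly level in old mice, with Tlr2 first by less than the larger SD, whereas Myd88 stood above Tlr2 by more than the larger SD in young mice.

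Microglia markers had higher values in old cerebellum as well. All 20 markers, among them Cx3cr1, Csf1r, Tmem119 and P2ry12, had a higher mean in old mice, and for 11 of the 20 each old value lay above each young one, as for 3.15% of all genes. By edgeR none of the 20 markers had an adjusted p under 0.05 for age, where 0.120% of all genes did. Their summed level was 385.5, 368.9, 322.3 and 619.9 CPM in old 1 to old 4, against 224.1, 282.4, 277.0 and 208.6 CPM in young 1 to young 4. Old 4 was again the highest of the 8 libraries, and no marker was at 0 in any library. Markers of border macrophages, the macrophages of meninges and vessels, summed to 18.7 to 39.0 CPM in old and 16.1 to 25.4 CPM in young mice, with 7 of 8 higher on average in old mice, 0 of 8 without overlap, and Pf4 and Ms4a7 at 0 in a young library. Blood leukocyte markers had 11 of 12 genes higher on average in old mice, with the neutrophil gene S100a8 at 54, 6, 4 and 53 counts in old 1 to old 4 and 2, 0, 7 and 0 counts in young 1 to young 4, and 10 of the 12 genes at 0 in at least 1 library. The part of border macrophages and leukocytes in the receptor values was not tested.

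To set the 9 genes beside the microglia markers, each was expressed per 1000 counts of the 20 markers, a ratio within a library that library scaling cannot change. Of the 9 genes, 7 had a higher mean in old mice on this scale, and Tlr3 and Myd88 had a lower one. The 9 genes were chosen by age from these same counts, so the ratios too are a description and not a test. Tlr13 had 12.9, 14.1, 10.2 and 19.1 per 1000 marker counts in old 1 to old 4, against 9.0, 8.33, 6.77 and 8.07 in young 1 to young 4. For Tlr13, as for Tlr7, each old value lay above each young one. The share of all genes for which this held was not computed on this scale, so nothing is read from such counts here. Tlr7 had 15.4, 19.1, 14.2 and 30.8 in old 1 to old 4, against 8.30, 13.9, 12.9 and 14.1 in young 1 to young 4, with old 3 just above young 4. Tlr2 had 12.1, 23.8, 9.76 and 20.6 in old 1 to old 4, against 9.69, 7.22, 9.23 and 10.1 in young 1 to young 4. Here old 1, old 2 and old 4 lay above each young mouse and old 3 did not.

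Tlr4 differed little from the markers, at 22.9 ± 2.32 per 1000 marker counts in old and 21.2 ± 4.62 in young mice (SD, n = 4 each), and its groups overlapped. Cd14 stood at 18.3 in old 4 and at 7.49 to 9.75 in the other old mice, against 6.92 to 9.42 in young mice, so outside old 4 the ranges overlapped. Tlr1 and Tlr9 overlapped as well, with mean ratios of old over young of 1.43 and 1.39. Tlr3 stood at 57.7 ± 7.15 in old and 70.0 ± 11.3 in young mice (SD, n = 4 each). Myd88 was at 12.5, 11.3, 21.5 and 14.3 in old 1 to old 4, against 21.5, 23.9, 21.5 and 21.5 in young 1 to young 4, lower in 3 of the 4 old mice than in any young mouse. The same 7 genes were higher and the same 2 lower when the C1q genes were left out of the markers, and each old Tlr2 value then lay above each young one. With 1 library left out the count stayed at 7, but some differences came near 0. The log2 ratio of old over young then ranged from 0.024 to 0.267 for Tlr4, from 0.1 to 1.194 for Tlr1 and from 0.11 to 0.62 for Cd14.

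**Figure D2:**
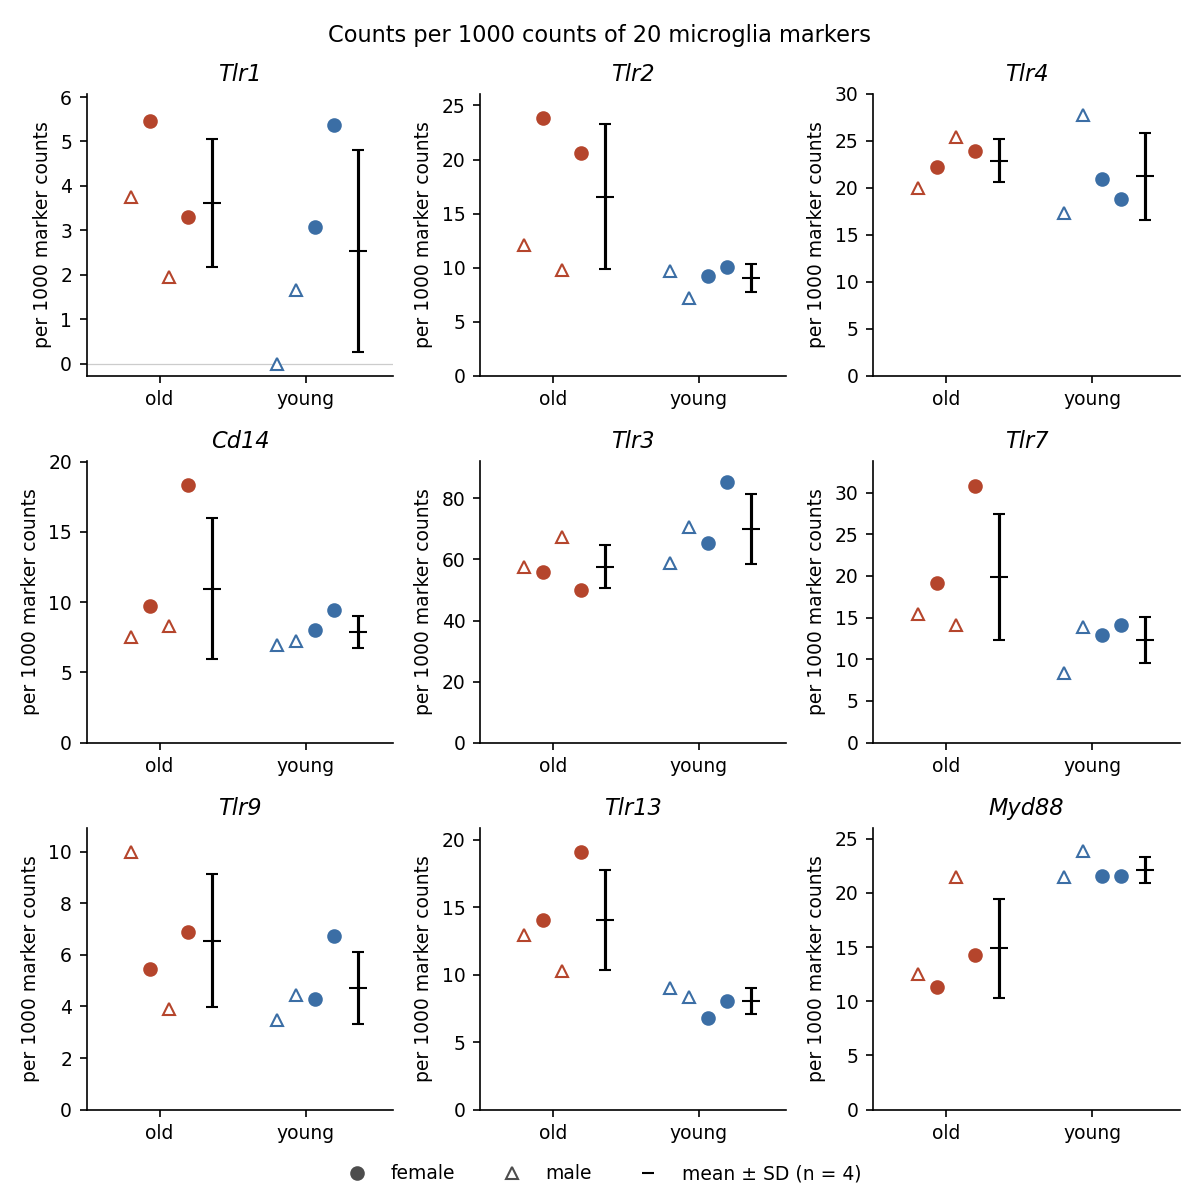
Counts of each gene per 1000 counts of 20 microglia markers in the same library (vertical axis, linear), for 4 old and 4 young mice, with circles for females, open triangles for males and bars for the mean ± SD (n = 4). Old points lie above young points for Tlr7 and Tlr13, while Tlr4 overlaps fully and Myd88 is lower in 3 of the 4 old mice.

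Sex was not used to choose the genes, so it could be tested. None of the 9 passed for sex by edgeR's quasi-likelihood test with a term for age, with adjusted p-values of 0.930 or more, where 0.0423% of all genes passed. No member passed by DESeq2 or limma-voom either, where 9 and 5 of all 14191 genes did. By edgeR 4 (Tlr1, Tlr2, Tlr7 and Cd14) had an unadjusted p under 0.05, against 4.76% of all genes. Tlr1 reached the level asked of tested genes in the 2 old females alone, so its direction for sex was fixed by that level. Of the other 8 genes, 7 had a positive log2 fold change, female minus male, against 52.9% of all genes. Old 4, the highest library for all 9 genes, is a female. Microglia markers were positive for sex in 18 of 20 genes, with a median of 0.27, and liver genes in 5 of 5 tested, with a median of 1.27, against a median of 0.01 over all genes, and their part in the sex values was not tested. Tlr2 averaged 10.8 CPM in old females and 3.90 CPM in old males, against 2.33 CPM in young females and 2.11 CPM in young males (n = 2 each). Its log2 fold change for sex was 1.07 ± 0.30 (SE), with an adjusted p of 0.930 by edgeR. At the same age of 83 weeks, the female old 2 had 8.78 CPM of Tlr2 and the male old 3 had 3.15 CPM. Each of these values is from 1 library. In old 2 and old 3 the choroid plexus list summed to 1500 and 104.1 CPM and the liver list to 84.2 and 23.6 CPM. The part of such tissue in the Tlr2 values of this pair was not tested. The other old pair were a female of 102 weeks and a male of 93 weeks, so between those mice sex and age cannot be told apart.

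The interaction of age and sex asked whether the age difference itself differed between females and males. By edgeR none of the 9 genes passed, as none of the 14191 genes did (0%), while 2.30% of genes had an unadjusted p under 0.05 and the DESeq2 and limma-voom counts over all genes were 1 and 0. Of the 9 genes Tlr2 alone had an unadjusted p under 0.05. The age difference of Tlr2 was larger in females by 1.32 ± 0.58 (SE) on the log2 scale, with an adjusted p of 1.0 by edgeR. Tlr13, Cd14 and Tlr7 had interaction estimates of 1.32 ± 0.77, 1.19 ± 0.93 and 1.13 ± 0.85 (SE). Tlr4, Myd88 and Tlr3 were at 0.81 ± 0.57, 0.29 ± 0.56 and 0.11 ± 0.34 (SE). Tlr9 and Tlr1 were negative, at -0.08 ± 0.93 and -1.045 ± 1.24 (SE). Old 4, a female of 102 weeks, was the highest library for all 9 genes, and its part in these estimates was not tested. With 2 mice per age and sex these intervals are wide and neither show nor exclude differences of these sizes.

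**Figure D3:**
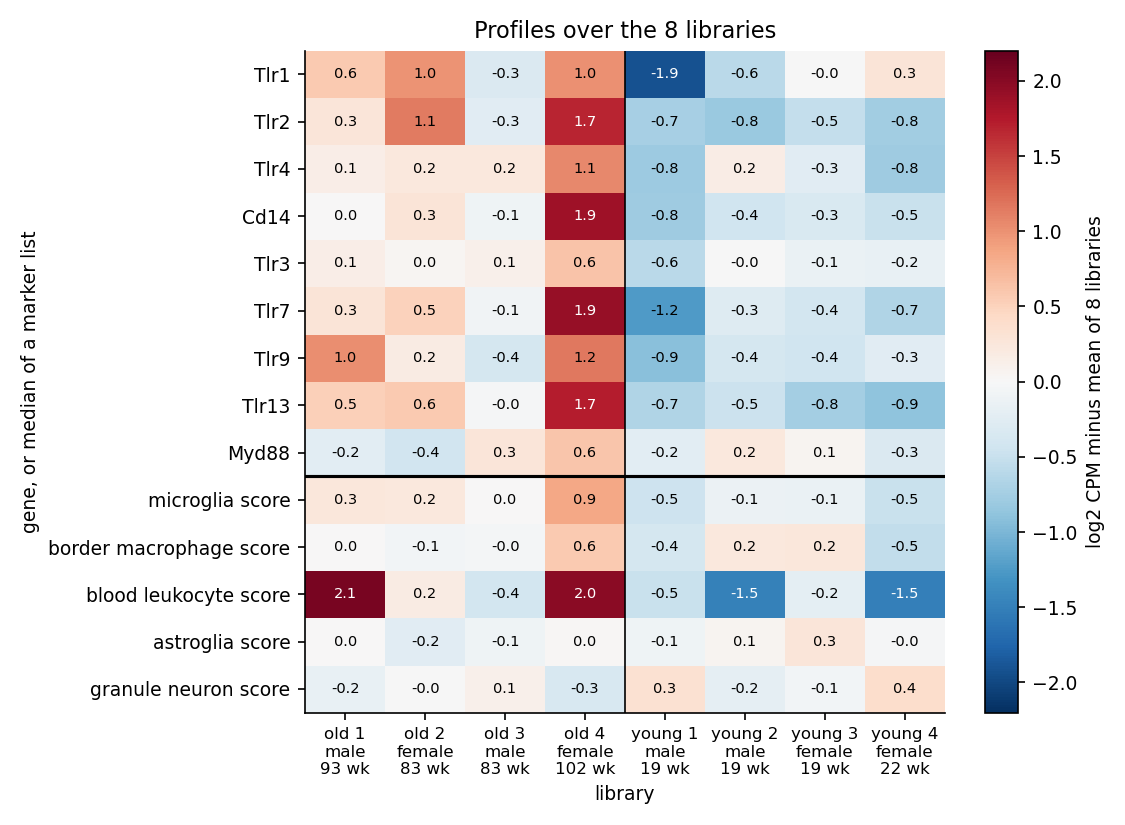
Log2 CPM of the 9 genes minus each gene's mean over the 8 libraries (colour and printed value), above the median of the same quantity over 5 lists of marker genes, with old libraries left and young libraries right. Old 4 has the highest value in all 9 rows of genes and in the microglia and border macrophage rows, and young 1 is lowest in 6 of the 9 rows of genes.

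By the root mean square (RMS) difference of centred log2 CPM over the 8 libraries, the profile nearest to that of Tlr13 among 13551 genes whose mean log2 CPM reached 1 was Mpeg1, a macrophage perforin-family gene, at 0.15. Tlr13's own RMS deviation from its mean was 0.84. Arhgap25 and C1qb followed at 0.17 and 0.21. Tlr2 was nearest to Serpina3n, a protease inhibitor of reactive astrocytes (0.26), Tlr13 (0.28) and Mpeg1 (0.29). Tlr7 was nearest to Cd14 (0.22), Cd84 (0.25) and Mpeg1 (0.27), and Cd14 to the Fc receptor gene Fcgr2b (0.22), Tlr7 (0.22) and Vwf (0.23). Tlr4 was nearest to the ceruloplasmin gene Cp (0.12), the microglia gene Gpr34 (0.14) and Rnase4 (0.15). Tlr9 was nearest to Uba7 (0.20), Cd33 (0.23) and Nlrc5 (0.23). Tlr1, at a few counts per library, had no gene nearer than 0.40 (Pcdhb11), followed by Neurl3 (0.41) and Opn4 (0.44). Tlr3 and Myd88 were nearest to other genes, Tlr3 to Six5 (0.07), Arhgap15 (0.10) and Zfp366 (0.12), and Myd88 to Arid5b (0.12), Errfi1 (0.13) and Acads (0.15).

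The remaining receptors of the family were too low to be tested. Tlr8, next to Tlr7 on the X chromosome, had 5, 8, 4 and 13 counts in old 1 to old 4, against 3, 6, 1 and 3 counts in young 1 to young 4. Tlr6, the other partner of Tlr2, had 4, 7, 2 and 14 counts in old 1 to old 4, against 1, 2, 4 and 3 counts in young 1 to young 4. For both genes old 4 was highest and the groups overlapped. Tlr5, Tlr11 and Tlr12 summed to 13, 1 and 18 counts over the old and 7, 2 and 13 counts over the young libraries. No age difference is read from such low counts.

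Beyond the 9 genes, 101 genes of the pathway were listed by role, 96 stood in the tables and 68 were abundant enough to be tested. Of the 68, 51 had positive and 17 negative log2 fold changes for age, with a median of 0.12, against 48.6% positive and a median of -0.01 over all genes. Irak3, Cxcl10 and Ptgs2 reached the level asked of tested genes in no young library, so a positive sign was fixed for these 3. Cd180 and Relb each reached it in 4 old and 1 young library, where 2 libraries were needed. Socs1 reached it in 1 old and 3 young libraries. By edgeR none of the 68 had an adjusted p under 0.05, where 0.120% of all genes did, while 19 had an unadjusted p under 0.05, against 1563 of all 14191 genes. By DESeq2 3 passed (Ctss, Irf7 and Ptgs2), against 0.881% of all genes, and by limma-voom none, where 1 of all 14191 genes did. Each old value lay above each young value for 12 of them, and for 3.15% of all genes.

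Co-receptor, trafficking and endosomal protease genes had 9 of 14 log2 fold changes above 0 and a median of 0.11. Ctss, cathepsin S, a protease that trims endosomal TLRs, had 25.3 ± 11.5 CPM in old and 10.5 ± 0.65 CPM in young mice (SD, n = 4 each), a log2 fold change of 1.24 ± 0.23 (SE) with an adjusted p of 0.0757 by edgeR. Cd180, a TLR-like surface receptor, and Ly86, which encodes its partner MD-1, had log2 fold changes of 1.85 ± 0.54 and 1.14 ± 0.26 (SE), with adjusted p-values of 0.245 and 0.126 by edgeR. Cd180 reached the level asked of tested genes in 1 young library only, and its groups overlapped, with old 3 at 1.57 CPM and young 2 at 2.67 CPM. Slc15a3, a lysosomal peptide transporter gene, stood at 0.71 ± 0.21 (SE). Ly96, which encodes MD-2, the subunit that TLR4 needs to bind lipopolysaccharide, had 4, 10, 0 and 7 counts in old 1 to old 4 and 3, 2, 1 and 4 counts in young 1 to young 4, too few to be tested.

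The 17 tested adaptor and kinase genes showed small values in both directions, with 13 positive and a median of 0.07. Pik3ap1, a TLR signalling adaptor of immune cells, had the largest, 1.15 ± 0.44 (SE), at an adjusted p of 0.374 by edgeR. The kinase gene Irak1 was at 0.13 ± 0.08, Ripk1 at 0.25 ± 0.13 and the ubiquitin ligase gene Traf3 at -0.21 ± 0.10 (SE). Negative regulators had 9 of 13 values above 0 and a median of 0.06. Irak3, the kinase-inactive IRAK of myeloid cells, which entered the test only through the old group, was at 1.24 ± 0.45 (SE) and the cytokine signalling suppressor Socs1 at -0.89 ± 0.36 (SE), with adjusted p-values of 0.330 and 0.387 by edgeR. Atf3 and Dok3 were at 0.61 ± 0.37 and 0.30 ± 0.24 (SE).

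NF-κB and interferon regulatory factor genes had 12 of 16 values above 0 and a median of 0.19, and the interferon regulatory factors held the highest values. Irf7, which drives type I interferon genes downstream of TLR7 and TLR9, had 95, 60, 74 and 139 counts in old 1 to old 4, against 26, 21, 15 and 41 counts in young 1 to young 4. Every old library lay above every young one, with a log2 fold change of 1.84 ± 0.34 (SE) and an adjusted p of 0.0757 by edgeR. Irf8 and Irf1 were at 1.03 ± 0.29 and 0.84 ± 0.27 (SE), and Nfkb1 at 0.26 ± 0.10 (SE).

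Most inflammatory target genes were near or below the floor. Of 24 listed, 19 stood in the tables and 5 were tested, all positive, of which Ptgs2 and Cxcl10 entered only through the old group. Icam1, an adhesion molecule gene, Ptgs2, the inducible cyclooxygenase, and the chemokine gene Cxcl10 had log2 fold changes of 1.36 ± 0.33, 2.10 ± 0.56 and 2.22 ± 0.63 (SE), with adjusted p-values of 0.162, 0.213 and 0.216 by edgeR, and the remaining 2, Tnfaip2 and Nfkbiz, 0.30 ± 0.25 and 0.18 ± 0.15 (SE). The cytokine gene Tnf had 3 counts over the old and 1 over the young libraries, and Il1b had 8 over the old and 1 over the young libraries. Lcn2 and Ccl2, named after their values were seen, were below the level tested. The antibacterial gene Lcn2 had 5, 3, 4 and 73 counts in old 1 to old 4 and at most 1 count in each young library, and the chemokine gene Ccl2 had 3, 4, 3 and 7 counts in old 1 to old 4 and none in any young library. Among 3 tested interleukin-1 family receptors, which share the TIR domain, Il1r1 was at 0.58 ± 0.26, Il1rap at 0.22 ± 0.12 and Il1rapl1 at 0.10 ± 0.11 (SE).

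**Figure D4:**
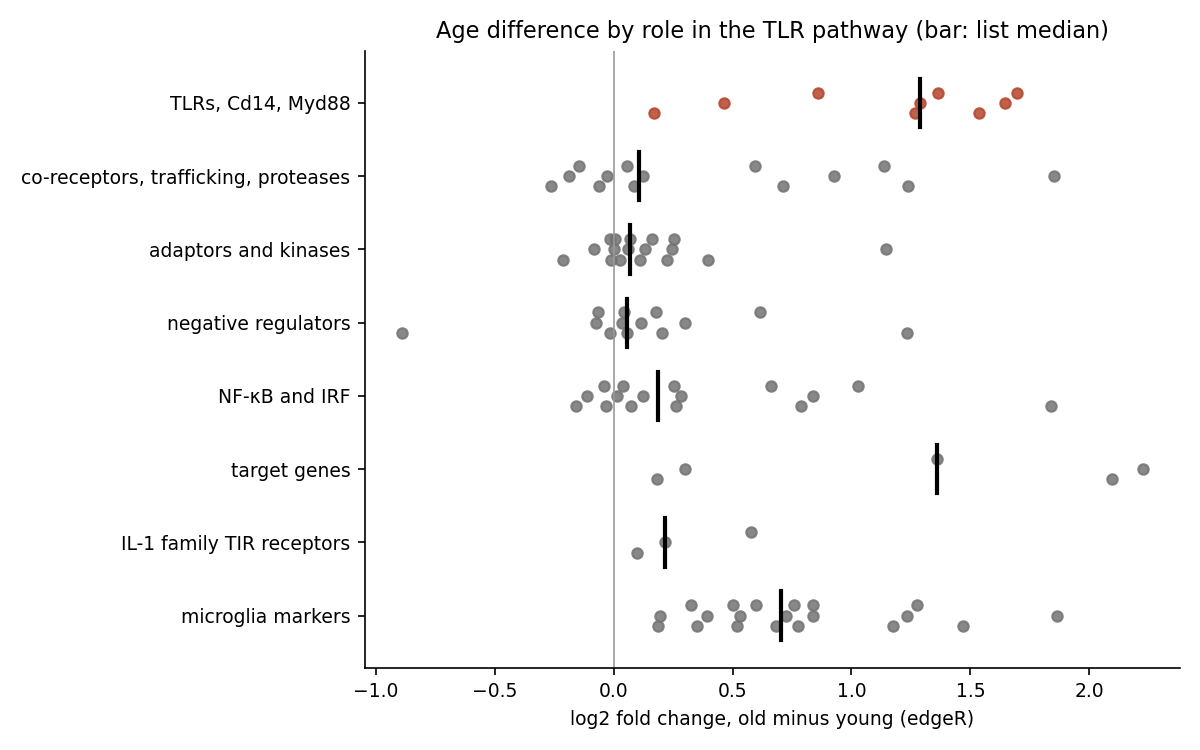
Log2 fold change, old minus young (horizontal axis), of each tested gene (points) by role in the TLR pathway, with the median of each list as a bar and the 20 microglia markers in the lowest row. The 9 receptor, Cd14 and Myd88 genes have a median of 1.29, the adaptor and kinase genes of 0.07 and the microglia markers of 0.70. Of the 9, Tlr1 and Tlr9 entered the test only through the old group.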

How the data were processed

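RNA of 8 cerebella was measured, 1 library per mouse. The authors deposited 1 table of raw counts per gene and library, without normalization, per the file headers and the whole-number values. The submitters' processing notes name Trimmomatic 0.39, STAR 2.7.5b and featureCounts, with GRCm38 and mm10 as builds. Gene models, strand setting and the handling of multi-mapping reads were not given in the sources used, so overlapping and near-identical genes may share reads. In 7 libraries, 24 gene names had turned into dates, so tables were joined by row.

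Genes were kept by filterByExpr (minimum of 10 counts, 4 age-by-sex cells), which left 14191 of 17700, and scaled with TMM. The test was edgeR 4.0.16 quasi-likelihood (R 4.3.3, robust, newer dispersion method) with terms for age and sex on all 8 libraries, with Benjamini-Hochberg adjustment and a threshold of 0.05. Standard errors were derived from the F statistic, and log2 CPM uses a prior count of 2. Other tools were DESeq2 1.42.0 and limma 3.58.1. The edgeR fits for age, sex and their interaction were also run on simulated negative binomial counts with set fold changes. The simulation added no outlying library and no admixed tissue, and its recovery of changed genes is not reported here. The members and lists were chosen with earlier results of these data known. Named genes outside the 9 are up to 4 with the smallest p per list and the 3 nearest profiles per gene, while Nfkbiz, Tnf, Il1b, Lcn2, Ccl2, Ly96, S100a8 and Acaa1a were named outside this rule after their values were seen. Old and young libraries share replicate numbers, which marked no shared animal. Exonic length and coordinates are from GENCODE M21 (GRCm38), promoter windows from RefSeq. Libraries were labelled as different mice, and every pair differed by more than sampling noise.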

Additional observations from a re-analysis of the deposited data

Results flagged for a closer look

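In 6 of 70 groups of 4 libraries, 1 library lay far from the other 3 by Dixon's test at 95%, which chance alone gives for about 1 group in 20. Old 4 was the far library in 4 of them. Tlr3 was at 31.1 CPM in old 4, against 20.6 to 22.1 CPM in the other old mice, Tlr4 at 14.8 CPM against 7.70 to 8.20 CPM, and Cd14 at 11.4 CPM against 2.67 to 3.60 CPM. The border macrophage markers summed to 39.0 CPM in old 4, against 18.7 to 21.7 CPM in the other old mice. Interleukin-1 family TIR receptors summed to 112.3 CPM in old 3, against 120.2 to 120.8 CPM in the other old mice. Myd88 stood at 23.9 per 1000 microglia marker counts in young 2, against 21.45 to 21.54 in the other young mice.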

How the results depend on the processing

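The number of genes past the threshold for age, 17, was 125 by the DESeq2 Wald test, 1 by limma-voom, 26 with the older edgeR dispersions, 1 with the replicate block, 184 without the 3 libraries richest in liver transcripts (old 2, old 3 and young 4), and 0 or 82 with a covariate for choroid plexus or for granule neuron transcripts. It ranged from 0 to 63 when 1 library was left out: 0 without young 3 or young 4, 2 without old 1 or young 1, 8 without young 2, 49 without old 3 and 63 without old 2. Among the 9 genes, Tlr2 passed without old 3, where 0.337% of genes did, and Tlr2, Tlr7, Tlr9, Tlr13 and Cd14 passed without the 3 liver-rich libraries, where 1.28% did. The fit without those 3 libraries kept only old 1 and old 4 of the old mice. Of the other pathway genes 3 passed by DESeq2, 8 without the 3 liver-rich libraries, and 0 to 4 with 1 library left out. For sex the count of 6 was 4 to 46 with 1 library left out (46 without old 3), and for the interaction the count of 0 was 1 by DESeq2 and 0 to 2 with 1 library left out (2 without old 1 or old 3).

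Myd88 changed sign, to -0.0263 by limma-voom with quality weights and -0.0507 with the granule neuron covariate, and ranged from -0.0976 (without old 4) to 0.35 with 1 library left out. Cd14 moved to 0.70 without old 4 and Tlr9 to 1.87 without the 3 liver-rich libraries. Tlr2 had the highest log2 fold change of the 9 in most settings, but Tlr13 did by DESeq2 (1.61), with the replicate block, with the choroid plexus covariate and without old 2, Tlr7 without young 2, Tlr1 without young 4, and Tlr9 without the 3 liver-rich libraries. The log2 fold changes of the other 8 genes stayed positive in every alternative in which they were tested. The filter of 50 counts in 4 libraries left 2 of the 9. Correlations of deviations between libraries with the same number were 0.16, -0.22, -0.05 and -0.25, and no old library was most like the young library of its own number, so the numbers gave no pairing. The groups that do not overlap were the same number, 5 genes, without old 4, where 4.22% of all genes did not overlap in that direction, an alternative added after the data were seen. The causes were not tested. Counts of 0 to 14 per library limit Tlr1.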
